A study of Mus musculus with 6 samples.

Results

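BMP ligands and antagonists were compared between 2 cell populations of young mouse muscle, PICs and satellite cells. The set held 9 genes chosen by name, 6 ligand genes (Bmp2, Bmp4, Bmp5, Bmp6, Bmp7 and Gdf10) and 3 genes of secreted antagonists or modulators (Grem1, Nbl1 and Bmper). Every probe set of the deposited array table whose only gene symbol was one of these was taken, giving 13 of 45037 probe sets, and 9 of the 18193 genes that a probe set names. Both populations were taken from hindlimb muscle, digested with enzymes, and the mice were of the C57 black 6 strain and 7 to 9 days old. The labels name no other treatment or genotype. They were parted by flow cytometry on CD34 and Sca1, and each has 3 arrays labelled biological replicates. The labels do not say how many mice went into a sample. Satellite cells are the stem cells that lie on the muscle fibre, and PICs are cells of the muscle interstitium known for PW1, which Peg3 encodes.

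Bone morphogenetic proteins (BMPs) are secreted ligands of the TGF-beta superfamily. They bind a pair of receptor types at the cell surface, which phosphorylate Smad1, Smad5 and Smad9, and these enter the nucleus with Smad4 and switch on target genes such as the Id family. Secreted antagonists bind the ligands outside the cell and keep them from the receptors. In skeletal muscle the pathway is known to keep myogenic progenitors dividing and to hold back their differentiation.

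Of the 13 probe sets, 11 passed the filter on low values, which asked that 3 or more of the 6 arrays exceed a log2 intensity of 4 (16 on the linear scale). These read 8 of the 9 genes. A call required both an adjusted p under 0.05 and a log2 difference of at least 1. By this rule 7 member probe sets, of the genes Bmp5, Bmp7, Gdf10 and Bmper, were called higher in PICs, and 0 were called higher in satellite cells (limma, 1 at an unadjusted p under 0.05). Of the 7, the 2 Bmp7 probe sets and 1 of Bmp5 passed the filter through the PIC arrays alone, so they had to differ, and their calls and p-values are given as a description. The other 4, of Bmp5, Gdf10 and Bmper, had satellite arrays above the low value level. The 1 with satellite cells higher, the probe set of Nbl1, had an adjusted p under 0.05 with satellite cells higher and a difference below the threshold. Over all 20606 probe sets tested, 14.5% were called with PICs higher and 12.5% with satellite cells higher, 27.0% in all, and 48.4% had an adjusted p under 0.05 whatever the size. With the 3 probe sets known only by a bound set to it, the median log2 difference of the 11 member probe sets was 2.86 (3.57 with fitted values), and that of all probe sets tested was -0.08. The member median counts probe sets and not genes, and Bmp5 and Bmp7 enter it more than once. It also includes the 3 that had to differ, so it is a description. Differences are log2 intensities of PICs minus satellite cells throughout, and n is 3 arrays per population. In sorted populations measured in bulk, fewer cells of a kind and less RNA per cell cannot be told apart.

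**Figure D1:**
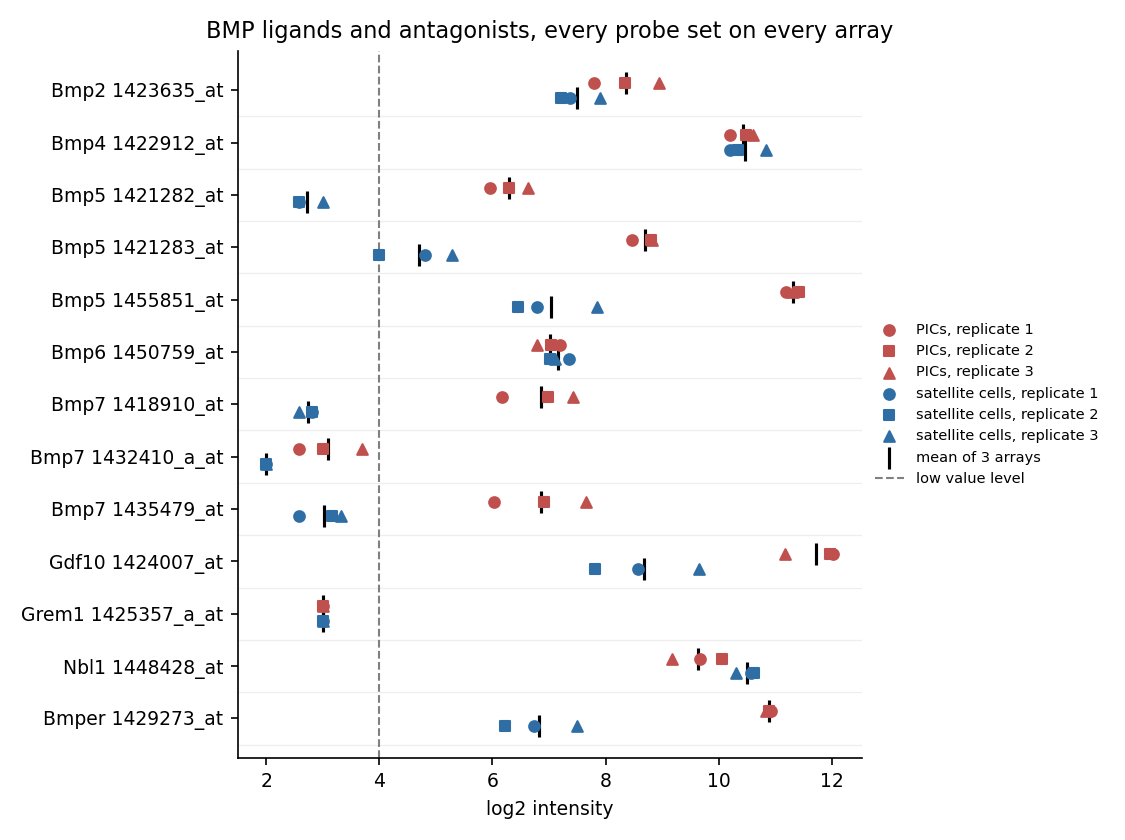
Log2 intensity of every member probe set (rows) on each array, with PICs in red, satellite cells in blue, a marker shape for each replicate number and a black tick at the mean of 3 arrays. The dashed line is the low value level of 4, and the PIC arrays of Bmp5, Gdf10 and Bmper all lie to the right of the satellite arrays, while those of Bmp4 and Bmp6 overlap with them.

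Bmp5 encodes a ligand that forms a subgroup with Bmp6 and Bmp7. It had 3 probe sets, and each was called higher in PICs. The brightest had intensities of 2359, 2747 and 2556 on PIC replicates 1, 2 and 3 and of 111, 88 and 230 on satellite replicates 1, 2 and 3. Every PIC array thus lay far above every satellite array. Its log2 level was 11.32 ± 0.11 (SD, n = 3) in PICs against 7.03 ± 0.72 (SD, n = 3) in satellite cells, a difference of 4.28 (95% interval 3.42 to 5.15, limma, adjusted p = 0.000345). The second probe set read 354, 447 and 454 in PICs and 28, 16 and 39 in satellite cells, a difference of 4.0 (95% interval 3.19 to 4.81, adjusted p = 0.000345). The third read 62, 79 and 99 in PICs and 6, 6 and 8 in satellite cells. No satellite array exceeds the low value level here, so this probe set gives only a bound, at least 4.91-fold higher in PICs (adjusted p = 0.000168). Direction and call were the same on the brightest and the second probe set, and the populations overlapped on neither. The third passed the filter through the PIC arrays alone, so it had to differ, and its call is a description. Over all probe sets tested, PIC arrays lay wholly above satellite arrays in 26.8% and wholly below in 32.1%.

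Bmp7 encodes a close relative of Bmp5 and did not exceed the low value level on any satellite array. The first of its probe sets read 72, 126 and 171 in PICs and 7, 7 and 6 in satellite cells, at least 7.24-fold higher in PICs (limma, adjusted p = 0.000287). The second read 65, 121 and 201 in PICs and 6, 9 and 10 in satellite cells, at least 7.28-fold higher (adjusted p = 0.000864). On both, PIC replicate 1 was the lowest PIC array and PIC replicate 3 the highest, with a PIC log2 SD of 0.63 and 0.82. A further Bmp7 probe set failed the filter and was not tested. It read 6, 8 and 13 in PICs and 4, 4 and 4 in satellite cells, all under an intensity of 16.

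Gdf10 encodes a ligand related to Bmp3. Its only probe set read 4173, 4006 and 2323 in PICs and 381, 224 and 801 in satellite cells. The lowest PIC array and the highest satellite array were both replicate 3, and the populations stayed apart. The log2 level was 11.73 ± 0.47 (SD, n = 3) in PICs against 8.68 ± 0.92 (SD, n = 3) in satellite cells, a difference of 3.05 (95% interval 1.84 to 4.26, limma, adjusted p = 0.00339). Between arrays of equal replicate number the difference was 3.45, 4.16 and 1.54, the widest spread among the called members.

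Bmper encodes a secreted protein that binds BMPs and can either hinder or aid their signalling. It read 1957, 1902 and 1838 in PICs and 106, 75 and 181 in satellite cells. The PIC arrays were close to one another and all above the satellite arrays. The log2 level was 10.89 ± 0.05 (SD, n = 3) in PICs against 6.82 ± 0.64 (SD, n = 3) in satellite cells, which is 16.8-fold (difference 4.07, 95% interval 3.30 to 4.84, limma, adjusted p = 0.000293).

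The promoters of Bmp5, Bmper and Gdf10 are shown because these genes were called in the same direction and differ plainly in their promoter sequence. Each line gives the 250 bases before the RefSeq start of the gene in GRCm38.p6, written 5′ to 3′ on the strand of the gene, with CG dinucleotides in capitals. Bmp5 lies on the plus strand (chr9:75775115-75775364), as do Bmper (chr9:23222826-23223075) and Gdf10 (chr14:33923337-33923586).
Bmp5: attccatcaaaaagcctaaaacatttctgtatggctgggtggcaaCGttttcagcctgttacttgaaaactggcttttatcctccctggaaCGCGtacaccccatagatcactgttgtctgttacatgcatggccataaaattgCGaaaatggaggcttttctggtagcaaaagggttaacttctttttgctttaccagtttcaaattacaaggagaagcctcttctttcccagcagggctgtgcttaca
Bmper: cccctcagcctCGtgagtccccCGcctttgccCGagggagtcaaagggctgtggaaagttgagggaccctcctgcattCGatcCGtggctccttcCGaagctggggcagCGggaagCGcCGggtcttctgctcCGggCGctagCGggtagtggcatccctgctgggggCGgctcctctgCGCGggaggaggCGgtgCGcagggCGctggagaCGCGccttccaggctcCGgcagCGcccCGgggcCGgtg
Gdf10: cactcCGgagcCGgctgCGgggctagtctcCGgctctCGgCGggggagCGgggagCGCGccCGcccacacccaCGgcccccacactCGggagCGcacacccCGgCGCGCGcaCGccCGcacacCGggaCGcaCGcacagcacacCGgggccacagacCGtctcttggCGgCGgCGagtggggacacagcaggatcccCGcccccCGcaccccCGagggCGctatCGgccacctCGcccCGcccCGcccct

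The Bmp5 window held 4 CG dinucleotides and 42.8% G and C, against 24 and 71.6% for Bmper and 35 and 78.8% for Gdf10. The median over all 32851 windows of this length was 6 CG dinucleotides. The GC box GGGCGG, searched on both strands, was found 0 times in Bmp5, 1 time in Bmper and 4 times in Gdf10, and 32.7% of all windows held it. The E-box CANNTG, the binding motif of basic helix-loop-helix factors such as Myod1, was found in none of these 3 windows and in 66.2% of all windows. The TATA box TATAAA was also found in none of them and in 12.4% of all windows. Windows were also present for Bmp4, Bmp6, Grem1 and Nbl1, and of these Bmp4 held 3 E-boxes, Bmp6 held 2 and the others 0. These are matches of letters and not sites of binding.

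Bmp2 and Bmp4 encode closely related ligands, and neither was called. Bmp2 read 221, 326 and 496 in PICs and 167, 148 and 239 in satellite cells. The lowest PIC array lay under the highest satellite array, so the populations overlapped. The log2 difference was 0.87 (95% interval 0.05 to 1.68, limma, adjusted p = 0.0762). With arrays of equal replicate number paired in the fit, the adjusted p was 0.0161, and the difference stayed under the threshold. Without PICs replicate 1 the difference was 1.15 and Bmp2 was called (adjusted p = 0.0308), and it was also called with array weights (1.04, adjusted p = 0.00154). Bmp4 read 1173, 1436 and 1550 in PICs and 1174, 1309 and 1832 in satellite cells. Its levels were 10.43 ± 0.21 and 10.46 ± 0.33 on the log2 scale (SD, n = 3 each), and the difference of -0.04 had an interval of -0.54 to 0.47 (adjusted p = 0.905). The interval lay within 2-fold in both directions.

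Bmp6, the third ligand of the Bmp5 and Bmp7 subgroup, read 146, 132 and 110 in PICs and 164, 130 and 138 in satellite cells. The populations overlapped, and the log2 difference was -0.16 (95% interval -0.54 to 0.23, limma, adjusted p = 0.452). Bmp5 was thus called higher in PICs while Bmp6, of the same subgroup, was not called in either direction. Bmp7 was also called, but its tested probe sets passed the filter through the PIC arrays alone, so its call is a description. The differences of these genes were not tested against one another.

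Nbl1 and Grem1 encode antagonists of the DAN family, which bind BMPs outside the cell. Nbl1 read 812, 1068 and 576 in PICs and 1524, 1583 and 1266 in satellite cells. All satellite arrays lay above all PIC arrays. The log2 level was 9.63 ± 0.45 (SD, n = 3) in PICs against 10.50 ± 0.17 (SD, n = 3) in satellite cells, a difference of -0.87 (95% interval -1.46 to -0.28, limma, adjusted p = 0.0273), below the 2-fold threshold. Without PICs replicate 2 it was called, at -1.09 (adjusted p = 0.0158). The only Grem1 probe set read 8 on all 6 arrays, under the low value level, and was not tested.

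**Figure D2:**
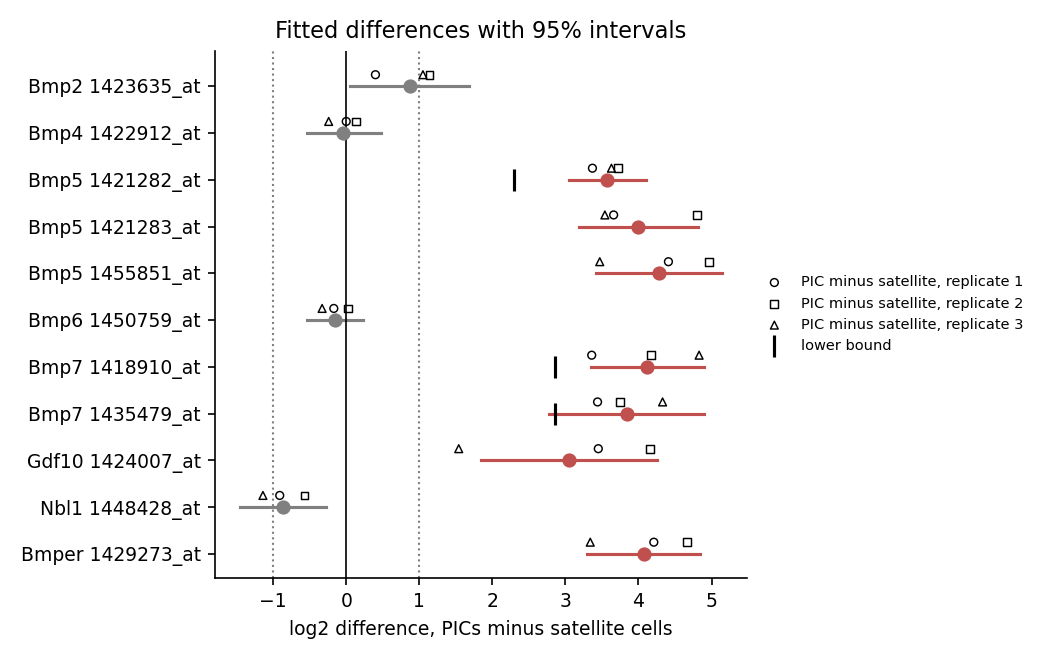
Fitted log2 differences of the 11 tested member probe sets (filled points, with 95% intervals), red where called higher in PICs and grey where not called, with the 3 differences between arrays of equal replicate number as open markers. Dotted lines mark a difference of 1 in either direction, and the 7 red probe sets lie between 3.05 and 4.28. Black ticks mark lower bounds, and for these 3 probe sets the fitted value is not a measured size.

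Differences within a replicate number had one sign for each called member. They ran from 3.47 to 4.96 for the brightest Bmp5 probe set and from 3.34 to 4.66 for Bmper. For Bmp7 no size is given, since its satellite arrays held no measured level. Bmp2 was higher in PICs at each number, by 0.40, 1.14 and 1.05, and Nbl1 was lower in PICs at each number, by -0.91, -0.57 and -1.14. Bmp4 gave 0.00, 0.13 and -0.24 and thus had no common sign.

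The sort was checked on Cd34, Pdgfra, Pax7 and Peg3. Cd34 was 3.79-fold higher in PICs (limma, adjusted p = 0.000154) and Pdgfra, the receptor gene used to identify mesenchymal progenitors of the interstitium, 15.1-fold higher on its brightest probe set (adjusted p = 0.000369). Pax7, the transcription factor of satellite cells, differed by -4.79 (adjusted p = 0.000388). The brightest Peg3 probe set differed by 0.19 (adjusted p = 0.174) and was not called. Ly6a, which encodes Sca1, was not analysed here. Of 9 myogenic markers 9 were called higher in satellite cells, and of 8 markers of fibro-adipogenic progenitors 6 were called higher in PICs and 0 lower. The 6 include Clec3b, which passed the filter through the PIC arrays alone and so had to differ, and its call is a description. The summed intensity of the myogenic markers was 1260 to 3176 on PIC arrays and 34737 to 38944 on satellite arrays, and none of the 9 was under the low value level on all PIC arrays. That of the fibro-adipogenic markers was 156712 to 159336 on PIC arrays and 63906 to 86452 on satellite arrays. Most of the satellite sums came from the 2 markers not called. On satellite replicates 1, 2 and 3 Col3a1 read 42109, 39150 and 49900, and Col1a1 read 14164, 14100 and 18209. Markers of other cell types were called in both directions, as were 14.5% (PICs higher) and 12.5% (satellite cells higher) of all probe sets tested. Of 8 fast fibre markers 2 were called higher in PICs, Tnnt3 (2.84) and Myh4 (1.56), with a median of 1.92 and a summed intensity of 6522 to 7976 on PIC arrays and 3354 to 8148 on satellite arrays. Of 4 tested Schwann and glial markers, 1 was called higher in PICs, S100b (1.90), and 0 lower. Of 8 pericyte and smooth muscle markers, 1 was called higher in PICs, Cspg4 (2.23), and 2 lower. Of 4 tested macrophage and leukocyte markers 0 were called. Among them Lyz2 read 1354, 99 and 8 in PICs and 1832, 64 and 17 in satellite cells, highest on replicate 1 in both. The 2 lower were Acta2 and Notch3 (-2.28 and -1.26). Of 5 tested tendon markers, 2 were called higher in satellite cells, Mkx and Chodl (-1.44 and -1.76), and 0 higher in PICs. The tendon gene Scx was at or under an intensity of 16 on all arrays. Tnmd, Fmod and Kera, of the same list, were far above it on every array and were not called on their brightest probe sets (-0.83, -0.97 and -0.63). Tnmd read 2465, 2964 and 1168 in PICs and 3537, 2871 and 4721 in satellite cells. The part of these cells in the differences of the BMP genes was not tested.

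Bmp5, Bmper and Gdf10 differed among the satellite arrays, as did several interstitial markers. On satellite replicates 1, 2 and 3, Bmp5 (brightest probe set) stood at 4.35%, 3.45% and 9.01% of its PIC mean, Bmper at 5.58%, 3.95% and 9.53%, and Gdf10 at 10.9%, 6.4% and 22.9%. Pdgfra stood at 5.4%, 4.73% and 11.3%, Lum, a matrix proteoglycan of fibroblasts, at 9.16%, 5.64% and 18.2%, and Dcn, also a matrix proteoglycan, at 24.3%, 17.5% and 30.6%. Cd34 was nearly even, at 27.2%, 24.3% and 27.7%. Osr1 stood at 3.5%, 1.5% and 5%, in part under the low value level, and Clec3b, wholly under it, at 3.75%, 2.63% and 2.63%. Satellite replicate 3 was the highest satellite array for the 4 called member probe sets with a satellite value above the low value level. Over all 2306 probe sets called higher in PICs with every satellite array above that level, 56.2% were also highest there. Bmp7 has no order among its satellite arrays, which all lay under the level. The part of interstitial cells in the satellite level of these genes was not tested. Without satellite replicate 3 the same 7 probe sets were called higher in PICs, with differences of 4.69 for the brightest Bmp5 probe set, 4.41 for Bmper and 3.54 for Gdf10.

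**Figure D3:**
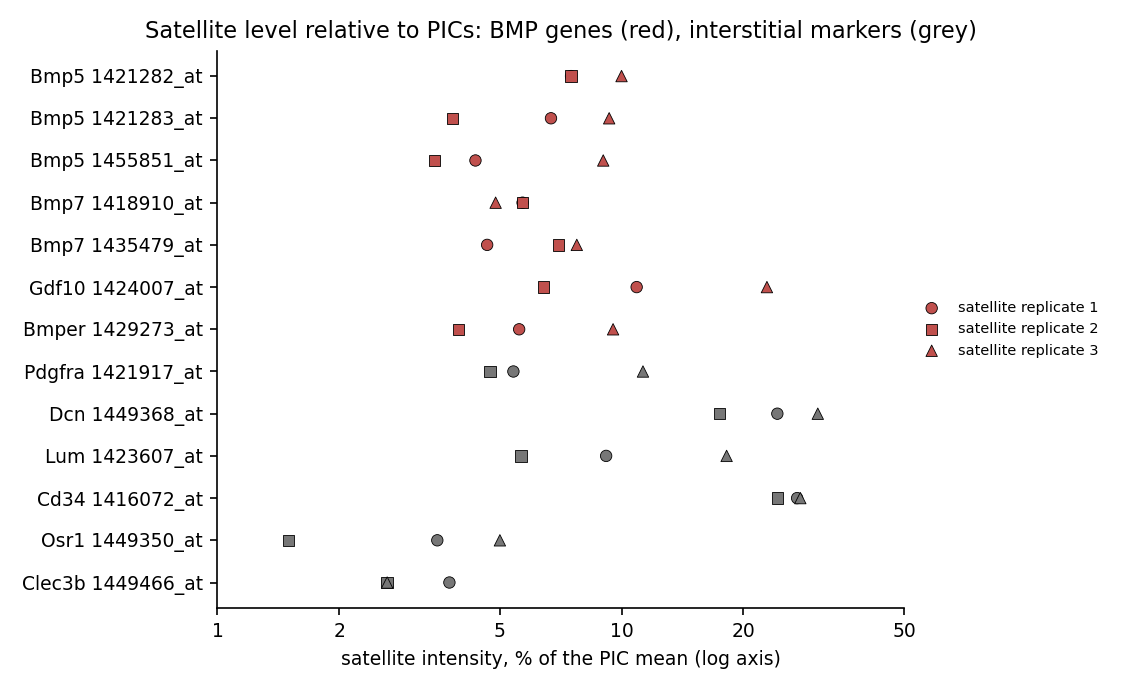
Intensity on each satellite array as a percentage of the PIC mean (log axis) for the 7 member probe sets called higher in PICs (red) and 6 called markers of fibro-adipogenic progenitors (grey), with a marker shape for each satellite replicate. Triangles (replicate 3) lie to the right for Bmp5, Gdf10, Bmper, Pdgfra, Dcn and Lum, and the Bmp7 points and those of the dimmest Bmp5 probe set (top row) rest on values under the low value level, which have no order.

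Other genes of the pathway were taken from lists by role, with the probe set of highest mean for each gene. Of 61 genes with a probe set, 45 passed the filter, 13 were called with PICs higher and 5 with satellite cells higher. These calls include Tll1 and Atoh8, which passed the filter through 1 population alone and so had to differ. None of the 6 further BMP-class ligands with a probe set (Bmp8a, Bmp8b, Bmp10, Bmp15, Gdf2 and Gdf5) passed the filter. Their intensities were at most 9 on any array.

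Extracellular antagonists and modulators were called in 10 of 16 tested genes, 9 with PICs higher and 1 with satellite cells higher. Their median log2 difference was 1.24, and 27.0% of all probe sets tested were called. The 9 include Tll1, which passed the filter through the PIC arrays alone and so had to differ, and its call is a description. Chrdl1, a chordin-like BMP antagonist, read 1398, 1766 and 1809 in PICs and 64, 34 and 98 in satellite cells, a difference of 4.78 (limma, adjusted p = 0.000318). Its relative Chrdl2 went the other way, at 62, 25 and 7 in PICs and 1124, 1224 and 1089 in satellite cells (-5.69, adjusted p = 0.0015). The PIC arrays of Chrdl2 differed widely among themselves, and all lay far under the satellite arrays. Its difference was -6.43 without PICs replicate 1 and -4.86 without PICs replicate 3. PIC replicate 1 was the highest PIC array for Chrdl2 and for 8 of the 9 myogenic markers. Of the 5 pathway genes called higher in satellite cells, 2 were highest on PIC replicate 1 alone and 2 on PIC replicate 3 alone. The part of myogenic cells in the PIC level of Chrdl2 was not tested. Kcp, a chordin-like protein known to enhance BMP signalling, differed by 4.42, Fst, the activin antagonist follistatin, by 4.16, and the matricellular protein gene Smoc2 by 4.03. Also higher in PICs were Sostdc1, a secreted antagonist (2.88), Htra1, a secreted protease (1.75), and Fstl1, a follistatin-like protein (1.24). Bmp1, a protease that cleaves chordin, differed by 1.24, and its relative Tll1 was at least 3.48-fold higher in PICs. Chordin itself (Chrd) read 314, 461 and 329 in PICs and 271, 288 and 278 in satellite cells and was not called (0.38, adjusted p = 0.118). Noggin (Nog) read 3 on all 6 arrays and was not tested.

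Receptors and co-receptors were called in 4 of 12 tested genes, 3 with PICs higher and 1 with satellite cells higher, with a median of 0.63. This share is near the 27.0% called among all probe sets tested. Among type I receptors, Bmpr1a read 2846, 3199 and 3671 in PICs and 2272, 2342 and 2639 in satellite cells, a difference of 0.42 (95% interval 0.08 to 0.76, limma, adjusted p = 0.0494). Acvr1 differed by 0.91 (adjusted p = 0.00133), and both stayed under the 2-fold threshold. Acvr1 was called with array weights (1.02, adjusted p = 3.07e-05). Acvrl1, a receptor known from endothelium, read 282, 402 and 170 in PICs and 53, 46 and 62 in satellite cells and was called (2.33, adjusted p = 0.00185). Bmpr1b failed the filter, with intensities of 13, 14 and 21 in PICs and 10, 9 and 18 in satellite cells.

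Among type II receptors Bmpr2 differed by 0.31 (95% interval 0.00 to 0.61, limma, adjusted p = 0.086). Acvr2a differed by 0.84 (adjusted p = 0.0183) and was called without satellite replicate 3 (1.06, adjusted p = 0.00324). Acvr2b read 28, 24 and 10 in PICs and 203, 160 and 113 in satellite cells. It was called higher in satellite cells (-3.03, adjusted p = 0.00212), on the only 1 of its 3 probe sets that passed the filter.

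The co-receptor genes Eng and Tgfbr3 were called higher in PICs, by 1.95 (limma, adjusted p = 0.00108) and 1.38 (adjusted p = 0.00117). Eng, which encodes endoglin, and Acvrl1 are both markers of endothelium. Of 8 other endothelial markers, all of them tested, 0 were called (limma, and 0 had an unadjusted p under 0.05). None was under the low value level on all arrays of a population. Their summed intensity was 1826 to 6111 on PIC arrays and 3235 to 4404 on satellite arrays. Cdh5, the endothelial cadherin, read 2146, 1683 and 362 in PICs and 1407, 851 and 658 in satellite cells, and Eng read 1094, 1254 and 714 in PICs and 252, 232 and 292 in satellite cells. PIC replicate 3 was the lowest PIC array for Cdh5, Eng and Acvrl1, but not for Tgfbr3. It was also the lowest for Gdf10 (2323), Kcp (1709) and Smoc2 (14516), none of them on the endothelial list. The share of all probe sets lowest there was not counted, and the part of endothelial cells in the difference was not tested. The other co-receptor genes were Rgma (-0.25, adjusted p = 0.7), Rgmb (0.17, adjusted p = 0.247) and Neo1 (0.20, adjusted p = 0.382). Of the 6 Rgmb probe sets, 2 of lower mean were called higher in PICs. Bambi, a decoy receptor, read 447, 755 and 1025 in PICs and 317, 311 and 470 in satellite cells (0.97, adjusted p = 0.0569). It was called without PICs replicate 1 (1.29, adjusted p = 0.0147) and with array weights (1.18, adjusted p = 0.00109).

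Smads and their regulators had 0 calls among 9 tested genes (limma, with 2 at unadjusted p under 0.05), against 27.0% of all probe sets tested. Smad1, Smad5 and Smad4 differed by -0.22 (95% interval -0.58 to 0.14), -0.20 (-0.45 to 0.04) and 0.08 (-0.18 to 0.33). The inhibitory Smad7 differed by 0.66 (adjusted p = 0.0397) and the ubiquitin ligase gene Smurf2 by 0.52 (adjusted p = 0.0201), both under the 2-fold threshold. The inhibitory Smad6 read 19, 19 and 13 in PICs and 19, 24 and 19 in satellite cells, close to the low value level (-0.29, adjusted p = 0.265). Smad9 read 5 on all 6 arrays and was not tested.

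Genes known as BMP targets went in both directions, with 4 of 8 tested called, 1 with PICs higher and 3 with satellite cells higher (median -0.36). Among all probe sets tested 27.0% were called. Atoh8, a basic helix-loop-helix factor, read 8, 8 and 6 in PICs and 130, 136 and 120 in satellite cells, at least 8.03-fold higher in satellite cells (limma, adjusted p = 7.63e-05). Atoh8 passed the filter through the satellite arrays alone, so it had to differ. Its call, 1 of the 3, and its p-value are given as a description. Hey1, also a target of Notch, read 308, 281 and 455 in PICs and 1247, 1639 and 1826 in satellite cells (-2.19, adjusted p = 0.000755). Id1, an inhibitor of myogenic helix-loop-helix factors, read 239, 325 and 533 in PICs and 669, 777 and 833 in satellite cells (-1.13, adjusted p = 0.0225). The call of Id1 was lost without the filter (difference -1.13, adjusted p = 0.112), without PICs replicate 1 (difference -0.86, adjusted p = 0.0466) and without PICs replicate 2, satellite replicate 2 or satellite replicate 3 (differences -1.08, -1.11 and -1.06, adjusted p = 0.0748, 0.0718 and 0.0675). Id2 and Id3 were not called, at -0.28 and -0.44 (adjusted p = 0.298 and 0.393). On its brightest probe set Id4 differed by 1.00 (adjusted p = 0.0558) and was called without satellite replicate 3 (1.31, adjusted p = 0.0183) and with array weights (1.13, adjusted p = 0.000976). Another Id4 probe set read 571, 550 and 606 in PICs and 266, 192 and 359 in satellite cells and was called higher in PICs (1.13, adjusted p = 0.00913). Msx1, a homeobox gene, was called higher in PICs (1.63, adjusted p = 0.00682).

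**Figure D4:**
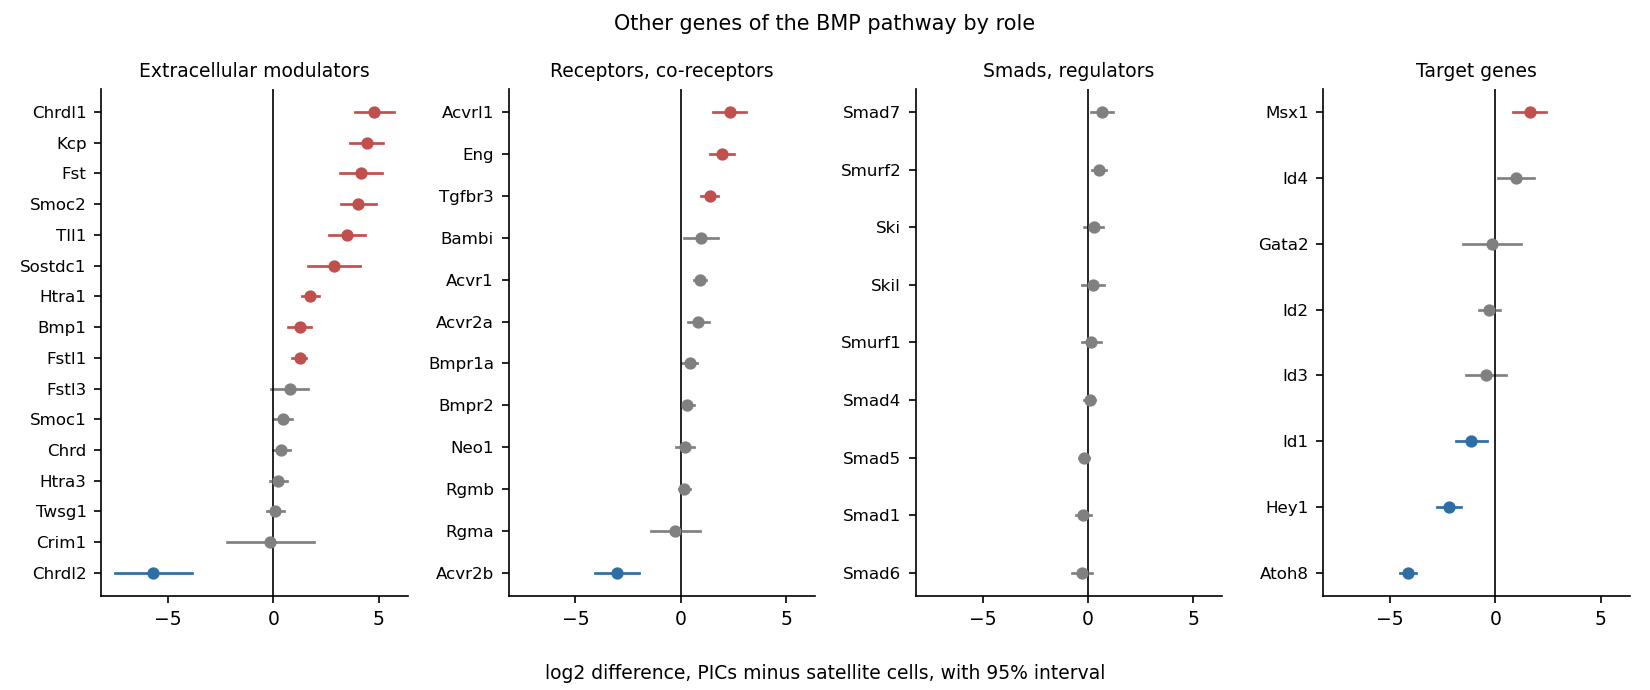
Fitted log2 differences with 95% intervals for the tested genes of 4 pathway lists, red where called higher in PICs, blue where called higher in satellite cells and grey where not called. Extracellular modulators reach from -5.69 (Chrdl2) to 4.78 (Chrdl1), while the Smads and their regulators lie between -0.29 and 0.66.

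For each called member, the 2 genes with the most similar profile over the 6 arrays were found by the root mean square distance between centred log2 values. They were Eps8 (0.081) and Mmp23 (0.093) for Bmp5, and Tmem119 (0.072) and Wnt5a (0.085) for Bmper. For Gdf10 they were Col4a4 (0.196) and Mfap4 (0.265), and for Bmp7 Ocln (0.260) and Dpysl3 (0.268). These distances are log2 units and describe 6 arrays that differ mainly by population.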

How the data were processed

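The authors deposited 1 table of probe set intensities, on a linear scale and rounded to whole numbers, for 6 arrays of a 1-colour Affymetrix design. GCRMA made these values, per the submitters' processing notes, and its version is not given in the sources used here. The labelled cRNA was prepared from 200 ng of RNA, per the labels' protocols. Each array had a median intensity of 10, and the number of arrays limits the precision. Rounding coarsens low log2 values, and GCRMA narrows the spread of unexpressed probe sets.

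Probe sets were named by the platform annotation, with symbols updated by gene number to RefSeq names of GRCm38.p6 (34945 had 1 symbol, and 34741 of these matched). Intensities were taken to log2, and probe sets above 4 on at least 3 of 6 arrays were kept. They were fitted with limma 3.58.1 in R 4.3.3 (lmFit and eBayes, two-sided, no trend), with Benjamini-Hochberg adjustment over 20606 probe sets. The code was tested on simulated data. Where no array of a population exceeded 4, a lower bound was given, the mean of the other population minus 4.

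The members and gene lists were chosen with earlier results of these data known. Named genes are all members, every receptor and Smad of the lists, up to 4 called genes per list and direction, 4 checks and the nearest profiles; Chrd, Nog, Sostdc1, Htra1, Fstl1, Bmp1, Tll1, Smurf2, Id2, Id3, Id4, Crim1, Gata2, Twsg1 and the further ligands were named after their values were seen. Promoters came from RefSeq windows, which held 7 of the 9 members. Deviations from the population mean correlated across probe sets at 0.617, 0.293 and 0.64 for arrays of equal replicate number and at -0.595 to 0.156 otherwise. Deviations cancel within a population, which by construction lowers some of these correlations. Arrays of equal number thus had the higher values, but neither these values nor the labels establish a pairing. Alternatives were the replicate block, other filters, an offset, scaling, a trend, array weights, 1 value per gene, no fold threshold and leaving out each array.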

Additional observations from a re-analysis of the deposited data

How the results depend on the processing

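All 7 member probe sets called higher in PICs kept their call in every alternative that tested them (105 of 105 values). Of the 7, 3 had passed the main filter through the PIC arrays alone, both tested Bmp7 probe sets and the dimmest of Bmp5. Their share of these values is a description. The replicate block pairs arrays of equal number. With it, 7 member probe sets were called higher in PICs, 0 higher in satellite cells and 5834 probe sets in all. The block changed no call of a member or a pathway gene. It moved the adjusted p of some uncalled genes across 0.05. Bmp2 went to 0.0161, Bambi to 0.0125 and the brightest Id4 probe set to 0.00325, while Smad7 rose to 0.055. Their log2 differences stayed under the threshold, that of Id4 narrowly. With 1 probe set per gene 4 members and 3230 genes were called, and with probe sets averaged by gene 4 and 3219, since fewer features were tested. Calls by adjusted p alone numbered 9979, with 1 member (Nbl1) higher in satellite cells. Leaving out 1 array gave 0 to 1 members called higher in satellite cells. Bmp4, which was not called, changed sign with array weights (0.09) and ranged from -0.17 to 0.15 when 1 array was left out. Of pathway genes not called, Gata2 turned to 0.31 with array weights, and Crim1, Neo1 and Smad4 to 0.10, -0.11 and -0.05 with the mean of probe sets. The cause was not tested. When 1 array was left out, Crim1 ranged from -0.87 to 0.56, Rgma from -0.66 to 0.14, Gata2 from -0.63 to 0.45 and Twsg1 from -0.06 to 0.21, none of them called. An offset of 16 narrowed dim differences by construction, to 2.07 for the dimmest Bmp5 probe set and to 2.55 and 2.47 for Bmp7. With the stricter filter the dimmest Bmp5 probe set was not tested, and 6 members were called. Values near the low value level limit what can be said of Grem1 and of the satellite level of Bmp7.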
